A study of Drosophila melanogaster with 2 samples.

Results

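The peaks of a chromatin immunoprecipitation sequencing (ChIP-seq) experiment were examined at 6 genes of temporal identity of Drosophila melanogaster, namely chinmo, br, mamo, Eip93F, Imp and Syp. Transgenic flies expressing an esg-eGFP fusion, that is, the transcription factor Escargot with a GFP tag, were collected as entire embryos aged 0 to 24 h, and chromatin was precipitated with an anti-GFP antibody according to the sample descriptions. The antibody field of the labels gives esg instead, and the peak lists cannot tell which of these is meant. Both biological replicates come from the same strain and form the only group, so there was no second genotype, stage or treatment to compare. Embryos of all stages were pooled, and the number of cells in which a site was bound cannot be told apart from the occupancy per cell. The members were chosen by position: a peak was counted when its summit was nearest to a protein-coding start site of one of the genes, or lay in the gene's body. By this rule 14 of the 4397 peaks of the main list belonged to the 6 genes, and 5 of the 6 genes had at least 1. The main list is the one deposited as conservative, with peaks selected by irreproducible discovery rate (IDR), a measure of how well peak ranks repeat. The number of sequenced reads is unknown. Signal value, used throughout, is the authors' own value of a peak, in a unit that is not stated, and ranks peaks only within a list.

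The 6 genes act in a timing system that lets stem cells and developing tissues make different progeny at different ages. In neural stem cells, the RNA-binding protein Imp promotes and the RNA-binding protein Syp opposes production of Chinmo, a BTB zinc finger protein that marks early identities. Mamo is a related BTB zinc finger protein that specifies neuron types of the mushroom body. Broad, encoded by br, and Eip93F are later factors that respond to the steroid hormone ecdysone and stand for the pupal and adult stages. Escargot is a zinc finger protein of the Snail family, known as a repressor in stem and progenitor cells.

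Chinmo, the gene with the most peaks of the 6, held 8 of the 14, and 6 of them lay in the intergenic stretch before the gene. The 3 strongest had signal values of 890.1, 679.7 and 575.2 and ranked at positions 43, 90 and 132 of all 4397 peaks. Mamo had 1 intronic peak of 358.6 and br 1 intronic peak of 182.0, while Eip93F had a pair of peaks of 113.7 and 104.6. Imp had a pair of weak peaks, of 69.6 and 68.2, that were on neither replicate's own list. No peak of the main list was assigned to Syp.

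The 201 bases centred on the strongest summit of chinmo, br, Eip93F and Imp are shown, together with the chinmo window that held ACAGTG, which was picked after its motif was seen. They are among the windows that were searched for motifs, and they let the AT-rich base composition be seen. Bases are from the plus strand of the RefSeq sequence of dm6. Capitals mark ACAGTG (or its reverse complement CACTGT) and TTAAAA (or its reverse complement TTTTAA).
chinmo, strongest peak, chr2L:1638686-1638886: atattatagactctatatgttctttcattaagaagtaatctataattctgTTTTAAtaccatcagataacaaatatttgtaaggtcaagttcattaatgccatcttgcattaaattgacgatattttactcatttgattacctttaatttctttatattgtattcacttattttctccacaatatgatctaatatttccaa
chinmo, second strongest peak, chr2L:1632738-1632938: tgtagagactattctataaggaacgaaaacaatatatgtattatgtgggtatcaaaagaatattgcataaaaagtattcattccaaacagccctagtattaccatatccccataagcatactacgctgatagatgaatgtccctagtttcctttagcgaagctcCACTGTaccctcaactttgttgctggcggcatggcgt
br, chrX:1618727-1618927: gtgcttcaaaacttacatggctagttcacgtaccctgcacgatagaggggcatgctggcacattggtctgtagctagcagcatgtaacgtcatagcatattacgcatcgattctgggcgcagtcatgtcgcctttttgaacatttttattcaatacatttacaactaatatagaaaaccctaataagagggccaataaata
Eip93F, stronger peak, chr3R:21993015-21993215: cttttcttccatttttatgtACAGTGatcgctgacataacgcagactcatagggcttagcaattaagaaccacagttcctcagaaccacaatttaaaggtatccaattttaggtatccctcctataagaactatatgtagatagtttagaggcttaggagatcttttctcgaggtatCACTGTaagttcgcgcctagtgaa
Imp, stronger peak, chrX:10825458-10825658: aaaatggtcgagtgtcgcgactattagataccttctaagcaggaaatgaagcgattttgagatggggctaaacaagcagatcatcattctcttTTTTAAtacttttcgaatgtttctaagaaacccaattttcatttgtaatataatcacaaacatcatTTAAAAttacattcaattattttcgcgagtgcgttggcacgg

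The chinmo gene (FBgn0086758) spans 1651258 to 1704682 of arm 2L on the plus strand and has 2 start sites, 16589 bp apart. The outer start site is that of 4 of its 6 annotated transcripts. The nearest protein-coding gene upstream is RFeSP, which encodes the Rieske iron-sulfur protein of the respiratory chain, and 37.1 kb separate the gene bodies. Within this gap the 6 upstream summits lay 1482 to 18420 bp before the outer start site. The farthest, that of the second strongest peak, was 18678 bp from the body of RFeSP, so it lay only slightly nearer to chinmo. The other 2 summits lay 4703 and 4916 bp after the outer start site, in an intron and before the inner start site. All 8 summits fell within 23336 bp, and the median gap between neighbours was 4478 bp, beside 11040 bp between neighbouring summits over the chromosome arms. The value over the arms also counts gaps between genes, and the smallest chinmo gap, 213 bp, was between overlapping peaks. As chinmo was picked with its count known, the shorter gap is a description only.

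The peak with the highest signal of any member was at 1638633 to 1638948, 12472 bp before the outer start site. Replicate 1 gave it a signal of 425.6 on its own list (rank 57) and replicate 2 gave 457.7 (rank 37). Its summit in replicate 1 was at the same base as in the main list, and that in replicate 2 was 7 bp away. The next peak, at 1632707 to 1632948 and 18420 bp before the start, had 314.3 in replicate 1 and 370.7 in replicate 2. The third, at 1643274 to 1643572 and 7825 bp before the start, had 269.0 and 312.9. All 3 were thus among the first 178 peaks of each replicate's own list. Their summits spanned 10595 bp, and they carried 80.9% of the summed signal of the chinmo peaks.

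**Figure D1:**
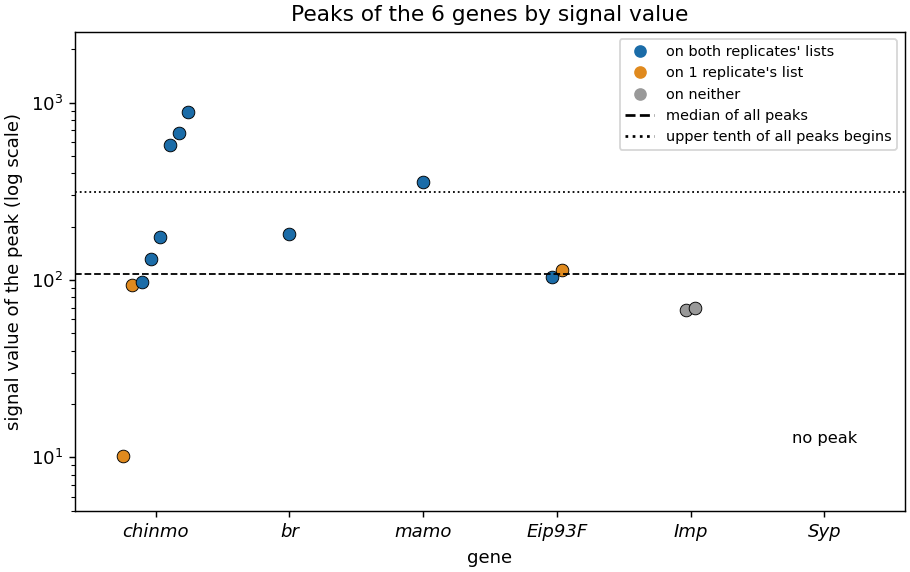
Signal value of each peak (points, log axis) for the 6 genes, coloured by presence on the replicates' own thresholded lists; the dashed line is the median of all 4397 peaks and the dotted line is where the strongest 10% begins. Of the members' peaks, 3 of chinmo and the one of mamo lie above the dotted line, the weakest point is a chinmo peak of 10.2, and Syp has none.

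The remaining upstream peaks of chinmo were weaker. A peak at 1634140 to 1634475 had a signal of 97.0 in the main list, with 49.9 in replicate 1 and 53.3 in replicate 2, and lay 1470 bp from the second strongest summit. Closest to the gene were peaks of 174.0 and 131.0, whose summits were 395 bp apart and 1877 and 1482 bp before the outer start site. The first of this close pair was higher in replicate 2 (112.1 against 74.1) and the second in replicate 1 (95.3 against 54.6). The list of replicate 2 had a further peak of 55.1 at this place, so the division of the signal between close summits differed between the replicates. All 6 upstream peaks were on both replicates' lists.

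The 2 intronic peaks of chinmo overlapped each other by 123 bp and are not separate regions. Their signal values were 94.1 and 10.2, at ranks 2604 and 4294. Both overlapped the same peak in each replicate, of 58.4 in replicate 1 and 27.8 in replicate 2. That peak was on the thresholded list of replicate 1 but not on that of replicate 2, where its −log10 IDR was 0.34. Counted as 1 region, chinmo had 7 regions with a peak.

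**Figure D2:**
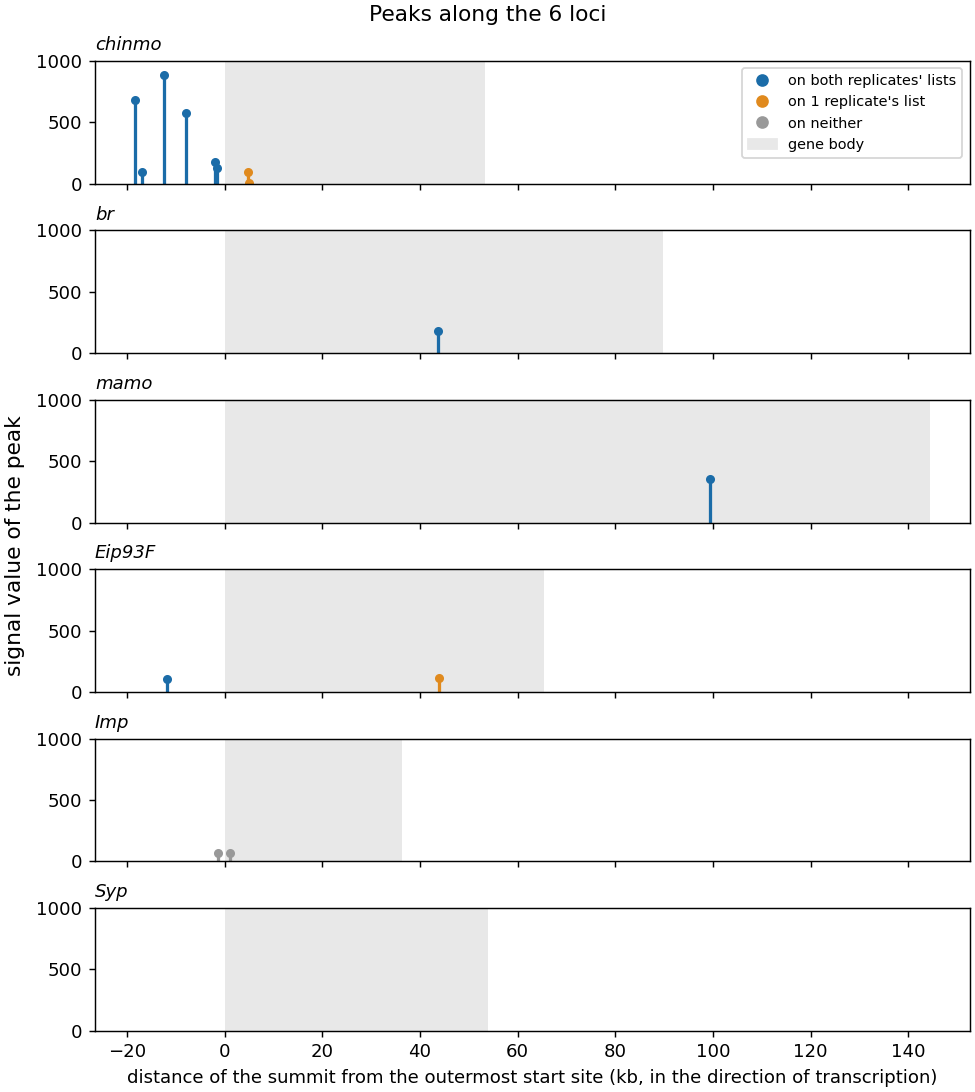
Signal value of each peak (vertical lines) against the distance of its summit from the outermost start site of the gene, in kb in the direction of transcription, for the 6 genes on a common scale; grey marks the gene body. The tall chinmo lines at 7825 to 18420 bp before the start are the tallest of the 6 panels, and the mamo peak is 99469 bp into the gene.

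The strong chinmo peaks lay away from protein-coding start sites. Of the 439 peaks in the strongest 10% by signal, 61.7% had their summit within 500 bp of a protein-coding start site, against 39.7% of all 4397 peaks. None of the 3 chinmo peaks in the strongest 10% was that close. Among the 1038 summits more than 5000 bp from a protein-coding start site, those 3 ranked at positions 4, 10 and 16 by signal, and the mamo peak at 35. Over the members together, 1 of 14 summits was within 500 bp of a protein-coding start site (7.14%, exact Clopper-Pearson 95% interval 0.181 to 33.9). The median distance was 6370 bp, beside 1036 bp over all peaks. Summits more than 10000 bp away made up 6 of the 14 members (42.9%, 17.7 to 71.1) and 11.8% of all peaks. These intervals cover counting error only, and peaks of one locus are not independent. The members' loci, as defined below, are also long (43.0 to 147.3 kb), and the same distances at other long loci were not computed.

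The name of the gene depends here on which genes count. When start sites of genes of every class were used, 4 of the 6 upstream chinmo peaks, among them the 3 strongest, were nearer to the start of a long non-coding RNA gene. The summits of 679.7 and 97.0 were 6817 and 8287 bp from the start of lncRNA:CR44603, and those of 890.1 and 575.2 were 8377 and 3730 bp from that of lncRNA:CR45695. The summit of 679.7 also lay near the middle of the gap to RFeSP, 18420 bp from the chinmo start and 18678 bp from the RFeSP body. Assignment to the nearest start site is a statement of position, and no expression was measured.

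A longer locus has more bases in which a summit can fall, so the counts were set beside the locus length, here the gene body plus the bases nearest to its protein-coding start sites. By the same rule, 3086 of 13968 protein-coding genes (22.1%) had at least 1 peak. Of the 717 genes whose locus was at least as long as the shortest of the members (43.0 kb, Imp), 52.2% had at least 1. With 5 of 6, the members' count stands beside that second share, and 6 genes are too few to read a difference. At least 8 peaks were found at 25 of all genes (0.179%), and at 13 of the 273 genes with a locus at least as long as the 72.0 kb of chinmo (4.76%). Of those 273 genes, 134 had no peak and the median was 1. Chinmo had 11.12 peaks per 100 kb of its locus, beside 3.2 over the 7 chromosome arms. The loci of the other 5 genes together had 6 peaks, or 1.33 per 100 kb. Overlapping peaks were kept apart in these counts at every gene. With them merged chinmo had 7, and the share of genes with that many was not computed. As chinmo was picked with its count known, these values describe it and test nothing.

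**Figure D3:**
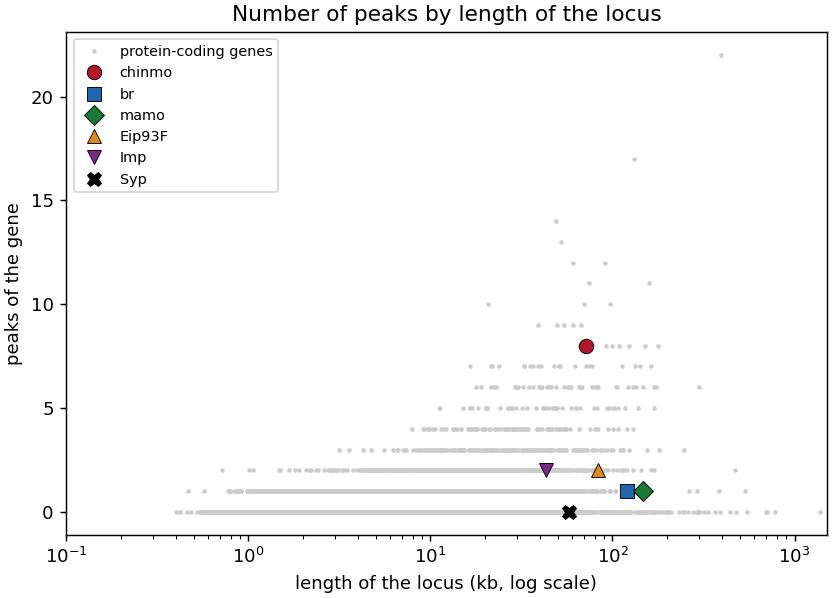
Number of peaks of each of 13968 protein-coding genes (grey) and of the 6 genes (symbols) against the length of the locus in kb on a log axis. Chinmo stands at 8 peaks and 72.0 kb, br and mamo have longer loci (120.8 and 147.3 kb) with 1 peak each, and Syp has none in 57.8 kb.

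Genes with the same number of peaks as chinmo were few. Exactly 8 peaks were counted at 9 genes, chinmo included. Of the other 8, those with the strongest top peaks were dnc, which encodes a cyclic AMP phosphodiesterase (499.9), CG32264 (470.7) and mam, which encodes a coactivator of Notch (396.2). All 8 peaks of each of these 3 genes had their summit in the gene body, whereas 2 of the 8 chinmo summits did. Median signals were 141.9 for dnc, 141.8 for CG32264 and 105.5 for mam, beside 152.5 for chinmo. By signal summed over its peaks, chinmo ranked at position 5 of the 3086 genes with a peak, with 2651.3.

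Mamo (FBgn0267033, X 13846116 to 13990527, minus strand) is the longest gene body of the 6, at 144.4 kb, and had 1 peak. The peak spanned 13890934 to 13891139 and had a signal of 358.6 at rank 356. Replicate 1 gave 193.9 (rank 340 of its list) and replicate 2 gave 165.8 (rank 390), with summits at most 4 bp from that of the main list. The summit was in an intron, 42285 bp after the nearest mamo start site and 99469 bp after the outermost one. It was the most distant of the 14 from a protein-coding start site.

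The br gene (FBgn0283451, X 1575132 to 1664869, plus strand) encodes several isoforms of the Broad BTB zinc finger protein from 9 annotated start sites. Its peak, at 1618659 to 1618994, had a signal of 182.0 at rank 1094. The values were 75.5 in replicate 1 and 107.0 in replicate 2, and the peak was on both lists. The summit lay in a br intron, but the nearest protein-coding start site, 672 bp away, was that of Mur2B, a mucin-related gene whose body lies over the same bases. The br call therefore rests on the gene body alone.

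Eip93F (FBgn0264490, 3R 21949114 to 22014539, plus strand) had peaks on either side of its start sites. One, of 104.6 at 21937164 to 21937499, was intergenic and 11782 bp before the outer start site. It was on both replicates' lists, with 58.4 in replicate 1 and 46.4 in replicate 2. The other, of 113.7 at 21992947 to 21993282, was in an intron 20736 bp after the inner start site. It was on the list of replicate 2 only, where it had 78.7, against 34.0 in the ranked list of replicate 1 before any threshold. This ratio of replicate 2 to replicate 1, 2.31, was the highest of the 14 peaks and above 1.42, the 95th percentile of all peaks, as was the ratio of 1.51 of a chinmo peak near the start site. The overlapping chinmo pair, at 0.48, was below 0.57, the 5th percentile. Signal values of different lists share no stated scale, so these ratios are read only beside those of all peaks.

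The 2 genes for RNA-binding proteins had the least signal. Imp (FBgn0285926, X 10787869 to 10824277, minus strand) had one peak of 69.6 at 10825390 to 10825725, intergenic and 1281 bp before its outermost start site. The other, of 68.2 at 10823014 to 10823349, lay 396 bp before an inner start site and was the only member within 500 bp of one. In the replicates' ranked lists the values were 35.3 and 33.3 for the first and 40.9 and 28.6 for the second, in replicates 1 and 2. Neither Imp peak was on a replicate's thresholded list or on the other list of the series, which makes Imp the member with the least replicate support. Syp (FBgn0038826, 3R 20756729 to 20810726, plus strand) had no summit in its body of 54.0 kb or nearest to any of its 5 start sites. The closest listed summits were 11.3 kb beyond its end, nearest to CG17271 (304.6), and 122.5 kb before its start, nearest to Pi3K92E (100.6).

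**Figure D4:**
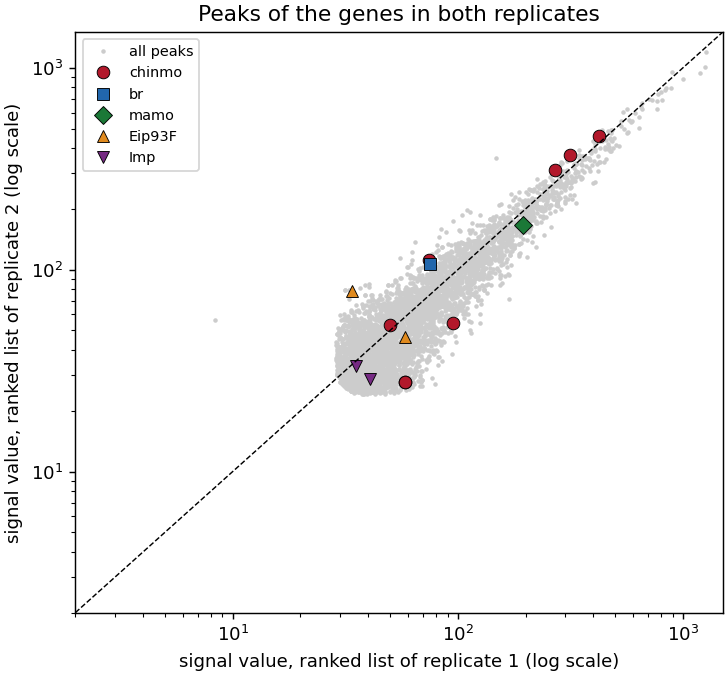
Signal value in the ranked list of replicate 2 against that of replicate 1 (log axes) for the 14 peaks of the genes (symbols) and all peaks found in both ranked lists (grey); the dashed line marks equal values, and the 2 overlapping chinmo peaks share 1 symbol. The 3 strongest chinmo peaks lie close to the line, at ratios of 1.08 to 1.18, and the Eip93F peak at 34.0 and 78.7 lies farthest above it.

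Presence in both replicates was near that of the whole list. Of the 14 members, 9 were on both replicates' thresholded lists (64.3%, 35.1 to 87.2), beside 57.5% of all peaks. A further 3 were on 1 list, and the 2 Imp peaks were on neither, beside 18.2% on neither among all peaks. All 14 were found in both replicates' ranked lists, beside 99% of all peaks. Those lists hold 61170 and 32565 peaks on the arms, so presence there is nearly given and adds no support. The median ratio of replicate 2 to replicate 1 was 1 for the members, from 0.48 to 2.31, and 0.92 for all 4355 peaks with both values. The median signal of the members was 122.3, beside 108.4 for all peaks. Of the 14, 8 were in the strongest 50% of the list by signal and 4 in the strongest 10%.

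The IDR threshold, a −log10 value of at least 2, kept members down to 2.45, the value of the overlapping chinmo pair. Next came Imp at 2.49 and 2.59 and the intronic Eip93F peak at 2.52. Just outside, with 1.75, was a ranked peak of signal 48.6 in the same upstream stretch of chinmo, 4582 bp before the outer start site. The closest ranked peaks that missed at br and mamo, both intronic, had −log10 values of 1.72 and 1.51. An intronic Imp peak at 10802613 to 10802948 missed with 1.54, although its signal of 90.9 exceeded that of both listed Imp peaks and it was on the list of replicate 1 (63.8). For Eip93F and Syp the highest missed −log10 values were 0.88 and 0.53. The strongest missed peaks by signal were those same peaks at chinmo (48.6), br (52.7), mamo (53.7) and Imp (90.9), and others at Eip93F (47.9) and Syp (35.4). In all, 172 ranked peaks at the 6 genes missed the threshold, of which 17 were at Syp.

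No member had CAGGTG, the hexamer bound by Snail family proteins, within 100 bp of its summit on either strand. Over all peaks 5.28% of windows held it, and 0 of 14 has an upper 95% limit of 23.2%, an interval that includes the background share. CAGGTA, which shares its first 5 bases with CAGGTG and is part of the sites of the early activator Zelda, was also found in none, beside 4.03%. ACAGTG was found in 2 of 14 windows (14.3%), beside 20.2% of all windows. They were the second strongest chinmo peak, with 1 copy on the minus strand, and the stronger Eip93F peak, with 1 copy on each strand, both visible in the printed windows. GAGAG, part of the sites of the GAGA factor, was in 1 window, that of the chinmo peak of 575.2, beside 19.8%. TTAAAA was in 7 of 14, beside 53.4%. Of the windows shown, that of Imp held 2 copies, on opposite strands.

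The windows of the members were AT-rich. Their mean GC content was 32.5% ± 6.5 (SD over 14 peaks), beside 34.2% ± 6.8 over all peaks. Within chinmo the GC content ranged from 23.4% to 41.8%, and the strongest peak had 23.9%. The br window had 41.3%. The 8 members of 336 bp were at the most common width of the list (79.3% of all peaks), while the 5 chinmo peaks that differed from it were 108 to 316 bp wide.

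Genes that act with or beside the members were counted by the same rule. Of 14 genes of the ecdysone pathway, to which br and Eip93F respond, 11 had a peak (78.6%, 49.2 to 95.3). The nuclear receptor gene Hr3 had a peak of 870.6 in its body, nearest to CG46321, and the receptor gene Hr4 had 9 peaks, the strongest at 512.9. Eip63E, which encodes a cyclin-dependent kinase, had 5 peaks, the strongest at 496.7, and Blimp-1, which encodes a repressor, had none. Of 12 genes for BTB domain proteins other than chinmo, br and mamo, 11 had a peak (91.7%, 61.5 to 99.8). Trl, which encodes the GAGA factor, had 4 peaks, the strongest at 1146.8 and rank 22, mod(mdg4) had 1 of 409.7 in its body, 66 bp from the nearest start site, that of pre-mod(mdg4)-E, and ken had 3, the strongest at 291.5. The gene lov had none.

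Of 19 other temporal patterning, heterochronic and neuroblast genes, 7 had a peak (36.8%, 16.3 to 61.6). Among them brat, which encodes a translational repressor, reached 552.0, the forkhead gene slp2 407.7, and shep, which encodes an RNA-binding protein, had 11 peaks with the strongest at 255.2. The neuroblast temporal factor gene cas had none. The median locus was 51.7 kb for the ecdysone genes, 49.1 kb for the BTB genes and 27.9 kb for these 19 genes. The first 2 lists are therefore to be read beside the 52.2% of long loci as well as the 22.1% of all genes. The difference between the lists was not tested.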

How the data were processed

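ChIP-seq (anti-GFP in the description of the samples, esg in the antibody field of the labels) of 2 biological replicates of 1 group was analysed from deposited peak lists. Chromatin was sonicated to 200 to 800 bp, per the labels. Coordinates are dm6 and the lists derive from alignments of the replicates and of a control, per the text descriptions among the deposited files; aligner and peak caller: not given in the sources used here. The signal value (column 7) was deposited by the authors in an unstated unit. The score on the deposited lists was used only to check the lists. The −log10 of the global IDR is the authors' value in the ranked lists. The 8 further columns of per-sample values in each ranked list were not used.

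From these lists, peaks on 7 chromosome arms were ranked and assigned to genes with Ensembl release 115 (BDGP 6.54), without transposable elements. Its coordinates are those of dm6. The base at the summit was classed as exonic before intronic before intergenic. Replicate presence needed an overlap of at least 1 bp, and the strongest overlapping peak gave the replicate's value. Sequence windows span 100 bp either side of the summit. All 14 were searched for motifs and 5 are printed; 1 further sequence that the naming rule covers is not reported here. No test was run, since there is 1 group and the members and lists were chosen with earlier results of these data known. Intervals are exact Clopper-Pearson at 95% and cover counting error only; read depth is unknown.

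Named genes were the 6 members, in each of 3 other lists up to 3 genes by strongest peak plus the alphabetically first without any, the strongest peak per member that missed the threshold, genes with as many peaks as chinmo, and genes whose start was nearest to a summit in a member's body. TTAAAA and the ranking of distant summits were added after seeing the data. Assignment, overlap (against bedtools 2.31.1) and motif search were tested on simulated data. Computations used scipy 1.17.1, pandas 2.3.3, numpy 2.4.6 and matplotlib 3.10.9 under Python 3.11.15. Alternatives were the other lists, the strongest 50% by signal, merged peaks, other assignments, overlaps, distances and windows.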

Additional observations from a re-analysis of the deposited data

How the results depend on the processing

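Of 129 values recomputed under other settings, 105 stayed within 1.5 times the reported count, within the interval of the reported share or within the spread over peaks, and 24 did not. The number of peaks of the 6 genes fell from 14 to 8 in the strongest 50% of the list by signal and to 6 with gene bodies only, which leave out the upstream chinmo peaks by construction. The share of members on both replicates' lists was 87.5% in the strongest 50%, 33.3% with gene bodies only and 100% against the ranked lists, which are longer by construction. It ranged from 81.8% to 90.9% without replicate 2 or replicate 1, where a peak of one list needed only the other. Summits at most 500 bp from a start site made up 0% with the other list of the series, without either replicate, in the strongest 50% and with 1 outermost start site per gene, because the 1 such summit, at Imp, was then absent or measured from another start. The mean GC content of the windows was 39% with 200 bp either side of the summit, beside 38.4% over all peaks. Chinmo had 4 peaks with start sites of genes of every class. Imp had 1 peak on the other list of the series and on that of replicate 1, and 0 on that of replicate 2. Those Imp peaks did not overlap either Imp peak of the main list. Eip93F had 1 peak on the list of replicate 1. Without the peaks of chinmo, a setting chosen after seeing the data, the members on both lists were 50% and the median percentile of signal was 50.3, against 56.9 with them. Unknown read depth limits what the missing Syp peaks can show. No paired analysis was possible because the series has 1 group.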

Other observations

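Few genes had several peaks among the strongest of the list. At least 3 peaks in the strongest 10% by signal were counted at 5 protein-coding genes, chinmo among them, a count made after the data were seen. The others were CG43245 (13 peaks in all), the forkhead gene CHES-1-like (14), sbb, which encodes a zinc finger protein (12), and simj, which encodes a subunit of a chromatin remodelling complex (5). Chinmo had 8 peaks in a locus of 72.0 kb, and simj 5 in one of 26.7 kb.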
